A study of Mus musculus with 26 samples.

Results

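Hmgcs1, Sqle, Idi1, Fdps, Fdft1, Insig1 and Srebf2 are genes of cholesterol synthesis and of the sterol switch that controls it. They were taken by symbol from the normalized expression table, which held all 7 of them among 21031 genes, and were followed in every one of the 26 libraries of the series. Of the 7, 5 encode enzymes (Hmgcs1, Idi1, Fdps, Fdft1 and Sqle), Insig1 encodes a sterol sensor and Srebf2 encodes the transcription factor SREBP2. The set holds no lipoprotein receptor, so sterol uptake is described below only through a wider pathway list.

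Cells build cholesterol from acetyl-CoA by way of mevalonate, isoprenoid diphosphates and squalene. When sterol in the endoplasmic reticulum runs low, the escort protein SCAP carries SREBP2 to the Golgi, where it is cut, and the released factor switches on the enzymes of the pathway. When sterol is plentiful, INSIG1 holds SCAP and SREBP2 back, and Insig1 is itself a target of SREBP. In artery walls cholesterol is a main component of caveolae, the membrane pits that are abundant in smooth muscle and endothelium.

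RNA came from the mesenteric arteries, which feed the gut, of male mice aged 8 weeks. The mice lacked pannexin 1, a membrane channel that releases ATP, or carried 1 changed residue in it, and the labels give each mutant its own controls. The groups were Global WT and Global Panx1 KO (3 libraries each), Y198F (genotype Y198F+/+) and Y198F Control (Y198F-/-) with 3 each, S205A (S205A+/+) and S205A Control (S205A-/-) with 4 each, and Y308F (Y308F+/+) and Y308F Control (Y308F-/-) with 3 each. The design text speaks of 3 vascular trees each, without saying whether per group or per library, and the sources used here do not reconcile this with the 4 libraries of each S205A group. The plus and minus signs refer to the changed allele, as the group titles show. The knockout is labelled global, and the labels name no Cre driver, transgene or further treatment; the controls were littermates or wild type. The series asks how phosphorylation sites of the channel differ in their effects. The labels do not say for each library that it came from a separate animal, so p-values measure the spread between these libraries.

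Panx1 itself, which the knockout targets, stood at 0.583, 0.944 and 1.36 CPM (counts scaled to library size) in the knockout libraries. It stood at 4.96, 3.38 and 4.88 CPM in wild type, so these libraries followed their labels there. The point mutants are not checked by their Panx1 level. Panx1 also varied among unmutated libraries. S205A control 1 stood at 0.83 CPM, inside the knockout range, and S205A controls 2 to 4 stood at 4.353, 1.555 and 2.803 CPM. Total counts ran from 14895969 to 23617902 per library. In 9 libraries the library name carries a number that begins with 22, here called the 22 series: in the S205A line controls 1 to 3 and mutants 2 to 4, and each of the 3 Y198F mutants. Annotated ribosomal RNA took 0.0831% to 0.139% of counts in these 9 libraries and 2.32% to 7.09% in the other 17. No Y198F control belongs to the 22 series, so inside that comparison the mutation and the series cannot be told apart. Smooth muscle markers summed to 20560 to 42910 CPM. Of 5 markers each, 3 were under 1 CPM in every library for intestinal epithelium (Epcam, Cdh17, Fabp2), acinar pancreas (Cpa1, Ctrb1, Pnlip) and liver (Apoa1, Ttr, Cyp7a1). With the other markers (Vil1 and Lgals4, Cela1 and Amy2a5, Alb and Serpina1a), these lists summed to 8.96 to 21.4, 0.176 to 5.55 and 0.236 to 5.92 CPM. Adipocyte markers summed to 64.4 to 3138 CPM, the widest spread of the artery and fat lists by ratio.

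The promoters of 3 members are shown because most of the values below concern them. Hmgcs1 was the member past the threshold in Y198F. Idi1 was past it in none of the 4 comparisons with controls, but with Hmgcs1 it differed between Y198F and Y308F, a difference not called with the series as a term. Insig1 reached 158.8 CPM in WT library 3, where its next highest library was at 77.35 CPM. Each sequence runs 5′ to 3′ in the direction of transcription on GRCm39, from 250 bases before to 50 bases after the start of the canonical GENCODE vM39 transcript. Capitals mark matches to CCAAT, the NF-Y box, and to TCACNCCAC, a core form of the sterol regulatory element that SREBP binds, on either strand, so that ATTGG is a CCAAT box read on the other strand. The windows are chr13:120151732-120152031 on the plus strand for Hmgcs1, chr13:8935669-8935968 on the plus strand for Idi1 and chr5:28276077-28276376 on the plus strand for Insig1.
Hmgcs1: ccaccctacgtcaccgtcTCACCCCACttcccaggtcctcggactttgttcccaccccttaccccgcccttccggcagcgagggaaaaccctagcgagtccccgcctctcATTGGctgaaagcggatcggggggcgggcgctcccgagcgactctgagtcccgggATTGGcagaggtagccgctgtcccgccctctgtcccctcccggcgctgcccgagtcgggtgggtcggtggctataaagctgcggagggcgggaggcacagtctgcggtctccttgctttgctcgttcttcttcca
Idi1: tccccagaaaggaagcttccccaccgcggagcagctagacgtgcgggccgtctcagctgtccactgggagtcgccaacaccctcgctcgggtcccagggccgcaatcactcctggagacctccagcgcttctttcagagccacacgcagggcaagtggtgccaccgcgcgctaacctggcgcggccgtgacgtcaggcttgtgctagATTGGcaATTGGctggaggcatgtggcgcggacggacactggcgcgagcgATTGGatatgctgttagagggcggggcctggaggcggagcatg
Insig1: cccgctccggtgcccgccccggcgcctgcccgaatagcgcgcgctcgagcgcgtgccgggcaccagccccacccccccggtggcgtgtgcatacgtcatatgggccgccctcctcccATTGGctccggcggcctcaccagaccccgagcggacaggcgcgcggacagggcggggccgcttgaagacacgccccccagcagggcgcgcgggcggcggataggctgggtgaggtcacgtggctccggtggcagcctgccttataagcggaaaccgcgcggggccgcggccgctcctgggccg

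A CCAAT box lay in the window of 7 of 7 members, against 39.2% of the 14194 promoters of expressed protein-coding genes. The GC box GGGCGG lay in 5 of 7 members, against 55.7% of those promoters. TCACNCCAC was found in 1 member, Hmgcs1, at position -232 from the start, and in 1.28% of all promoters. Other forms of the sterol regulatory element were not searched, so a window without this match may still hold one. Both strands were searched for each motif, and no match in a member overlapped a match to another motif. In Idi1 a pair of CCAAT boxes lay at -43 and -36. These matches describe letters in a fixed window and do not show a factor at work there.

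Hmgcs1 encodes the cytosolic HMG-CoA synthase, which feeds the mevalonate pathway. It lies on chromosome 13 from 120151915 to 120170470, and Srebf2 lies on chromosome 15 from 82031382 to 82093201, on the GRCm39 build. Idi1 (chromosome 13, 8935537 to 8942487) makes the isoprenoid dimethylallyl diphosphate, and Fdps (chromosome 3, 89000888 to 89019213) joins isoprenoids into farnesyl diphosphate. Fdft1 (chromosome 14, 63382189 to 63417027) joins farnesyl units into squalene, and Sqle (chromosome 15, 59186869 to 59203043) oxidises squalene. Insig1 lies on chromosome 5 from 28276315 to 28283668. The sources used here do not state whether counting used strand. Exons of Fdft1 share 24.8% of their bases with Ctsb on the opposite strand, a gene with a median of 346 CPM, so the Fdft1 values are uncertain. The shares on the opposite strand were 10.6% for Hmgcs1 with Gm48342 and 9.1% for Idi1 with Gm48574, both genes at a median of 0 CPM, and Hmgcs1 shares a smaller part with Nim1k. They were 7.34% for Srebf2 with Shisa8, 3.32% for Srebf2 with Gm56711 and 5.29% for Sqle with Washc5. Idi1 has 5 processed pseudogenes named after it, whose summed counts reached 29.8% of the Idi1 count in a library, with medians of 17.8% in the 22 series and 18.6% elsewhere.

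All 7 members were expressed in every library, with at least 167 counts each. Per kilobase of exon, Srebf2 had the highest level, 14.3 ± 2.62 CPM per kilobase (SD, n = 26), and ranked first in 23 libraries. Insig1 followed with 9.93 ± 5.35 (SD, n = 26) and ranked first in the other 3. Hmgcs1 had 9.60 ± 2.58 (SD, n = 26) and Idi1 8.63 ± 2.91 (SD, n = 26), both in CPM per kilobase. The second place of Insig1 rested on WT library 3, without which Insig1 had 9.03 ± 2.77 and Hmgcs1 9.47 ± 2.55 CPM per kilobase (SD, n = 25 each). The later enzymes were lower, with 4.50 ± 1.04 for Fdps, 3.01 ± 0.747 for Fdft1 and 2.02 ± 0.506 for Sqle (SD, n = 26 each, CPM per kilobase). Each gene's range over libraries overlapped that of the next gene in this order. The highest level of Insig1 was 7.21 times its lowest, but 3.51 times without WT library 3, below the 4.28 times of Idi1. Srebf2 varied least by this ratio, with 2.00 times, and for the other 4 it ran from 2.65 to 2.95 over all libraries.

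**Figure D1:**
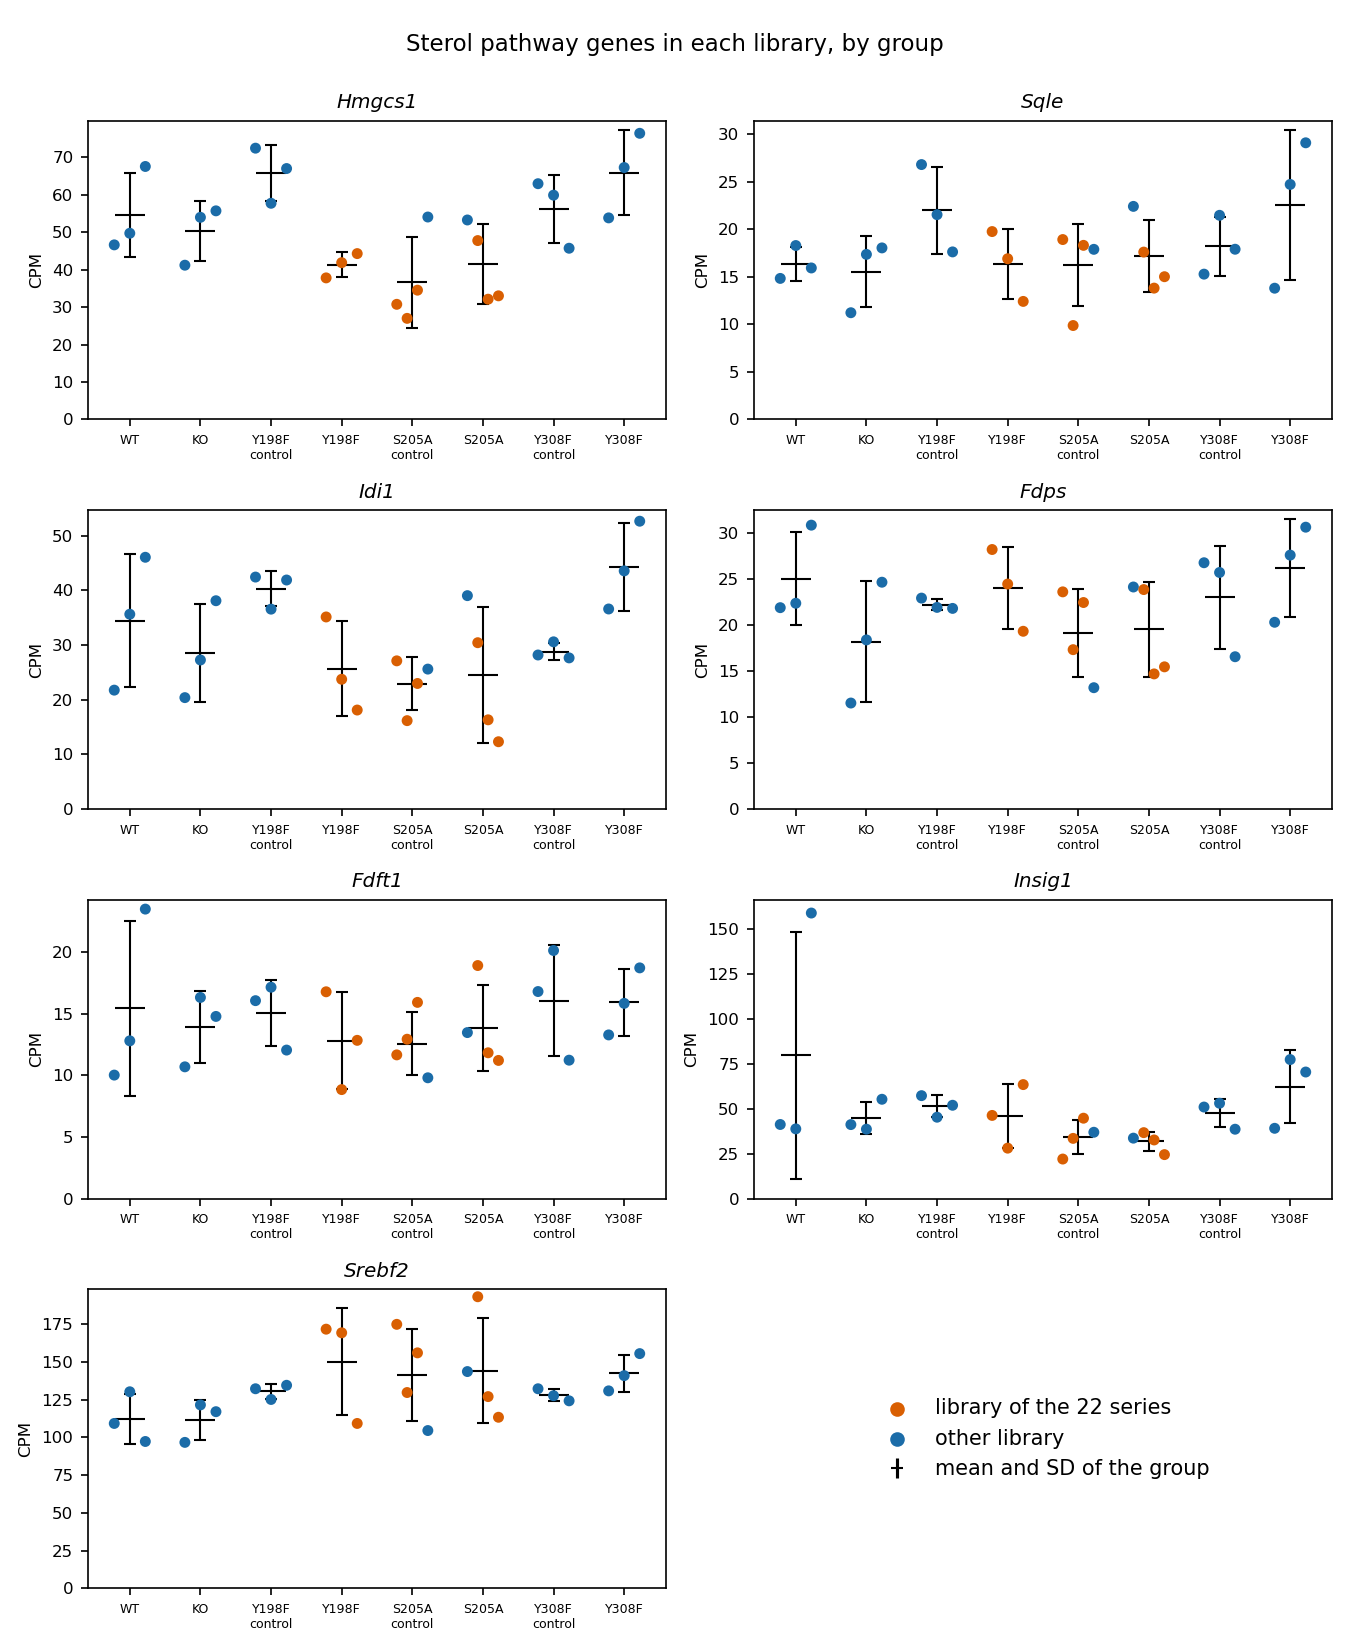
Normalized level in CPM (vertical axes, from 0) of the 7 genes in each of the 26 libraries, by group. Points are libraries, orange for the 22 series and blue for the others, and black marks are group means with SD. Hmgcs1 runs from 37.8 to 44.3 CPM in Y198F and from 57.7 to 72.5 CPM in its controls, and WT library 3 stands at 158.8 CPM for Insig1.

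Hmgcs1 was lower in Y198F arteries than in their controls, and it was the only member past the threshold in any of the 4 comparisons of a mutant with its own controls. It stood at 37.8, 41.9 and 44.3 CPM in the 3 Y198F libraries and at 72.5, 57.7 and 67.0 CPM in the 3 Y198F controls. The groups did not overlap. The means were 41.3 ± 3.28 CPM and 65.7 ± 7.44 CPM (SD, n = 3 each), and the log2 fold change was -0.68, with an SE of 0.114, a 95% interval of -0.93 to -0.43 and an adjusted p of 0.00310 in edgeR. The call held with each of the 6 libraries left out in turn, with edgeR adjusted p-values from 0.00411 to 0.0233, but not when all 8 groups shared 1 estimate of the spread (adjusted p 0.0838). An exact permutation test (two-sided) gave p = 0.1, which is as low as this design of 3 against 3 can go. In this comparison 15.0% of 16050 genes passed in either direction and 5.48% of the 16050 passed as lower, and groups failed to overlap in 34.2% of genes. A share of 1 in 7 members is therefore near this background.

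Idi1, the next enzyme of the set after mevalonate, had values of a similar size. It stood at 35.1, 23.8 and 18.1 CPM in Y198F and at 42.4, 36.6 and 41.9 CPM in the controls. The ranges were separate but close, since Y198F library 1 reached 35.1 CPM and the lowest control 36.6 CPM. The log2 fold change was -0.66 (SE 0.215), with an edgeR adjusted p of 0.0738 and an exact permutation p of 0.1 (n = 3 each). Idi1 passed under some other settings: the adjusted p was 0.0171 in DESeq2 and 0.00496 in edgeR without Y198F library 1. With no filter on low counts it was 3.96e-05 in edgeR. That fit gave Idi1 6646.4 degrees of freedom from 6 libraries, so its p-value is not stronger evidence than the others. Idi1 did not pass when all 8 groups shared 1 estimate of the spread (edgeR adjusted p 0.2846). With a library left out it passed in 1 of 6 edgeR fits, with adjusted p-values up to 0.2143. Sqle, the squalene oxidising enzyme, was at -0.43 on the log2 scale (SE 0.202, adjusted p 0.184 in edgeR). It was at -0.59 without Y198F library 1 and at -0.26 without Y198F library 3. Its libraries overlapped, with 19.8, 16.9 and 12.4 CPM in Y198F and 26.8, 21.6 and 17.6 CPM in the controls.

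The other 4 members did not pass in Y198F. Their log2 fold changes were 0.11 for Fdps (SE 0.150), -0.24 for Fdft1 (SE 0.234), -0.17 for Insig1 (SE 0.287) and 0.20 for Srebf2 (SE 0.158). Fdft1 was at -0.49 without Y198F library 1 and at -0.03 without Y198F library 2. Srebf2 was at 0.09 without Y198F library 1. It had an edgeR adjusted p of 0.470 with all libraries and 0.0415 without Y198F library 3, where its log2 fold change was 0.39. That library stood at 109 CPM, and the other Y198F libraries were at 172 and 169 CPM against 125 to 135 CPM in the controls. The members thus did not share a direction in this comparison, with 2 positive and 5 negative values and a median of -0.24, beside a median of -0.003 over all genes tested, 49.7% of which were positive. Among cell type markers, 2 of 7 smooth muscle genes passed as higher and 1 as lower, 1 of 7 endothelial genes as higher and 1 of 7 Schwann cell genes as lower. Summed levels did not overlap between Y198F and its controls for endothelium (4769 to 5182 against 3642 to 4638 CPM), Schwann cells (208 to 221 against 240.1 to 336.9 CPM) and adventitial fibroblasts (2389 to 3358 against 3561 to 4760 CPM). Of the fibroblast markers 0 of 7 passed in edgeR, and 5 had an unadjusted p under 0.05. Adipocyte sums overlapped, with 236, 564 and 2304 CPM in Y198F against 395 to 524 CPM, and 0 of 8 markers passed in edgeR or had an unadjusted p under 0.05. The part of these cell types in the member values was not tested.

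The Y198F values changed with the libraries used for comparison. The 3 S205A controls of the 22 series share the library series with the Y198F mutants but come from another line. They stood at 30.8, 27.0 and 34.5 CPM for Hmgcs1, so the Y198F libraries were all higher than these controls. Against them Hmgcs1 was at 0.42 on the log2 scale (SE 0.137, unadjusted p 0.0143, adjusted p 1.0 in edgeR), and Idi1 was at 0.22 (SE 0.280). In that comparison 0.0% of 15879 genes passed in edgeR, 492 had an unadjusted p under 0.05, and groups failed to overlap in 8.23% of genes. With Hmgcs1, 5 of 7 members were positive there, with a median of 0.18. Fibroblast markers were positive there in 7 of 7 (median 1.11, 5 with an unadjusted p under 0.05) and adipocyte markers in 8 of 8 (median 1.55, 0 with an unadjusted p under 0.05). Schwann cell markers were positive in 5 of 7 (median 0.50, 5 with an unadjusted p under 0.05), with sums of 208 to 221 CPM in Y198F and 129 to 179 CPM in these controls. Of these 3 lists, 0 genes passed in edgeR. Smooth muscle markers went the other way, negative in 7 of 7 (median -0.20, 0 with an unadjusted p under 0.05). The endothelial sums of these 3 controls were 1121, 9466 and 4450 CPM. The part of these cell types was not tested. With the series as a term in 1 fit of all 8 groups, the Y198F log2 fold change was -0.01 for Hmgcs1 (SE 0.249, 95% interval -0.52 to 0.51) and -0.03 for Idi1 (SE 0.463, 95% interval -0.99 to 0.94).

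The series itself could be read within the S205A line, where each group holds 3 libraries of the 22 series and 1 other. The other libraries, S205A control 4 and S205A mutant 1, stood at 54.1 and 53.3 CPM for Hmgcs1. The 6 of the 22 series ran from 27.0 to 47.8 CPM, below both. The series term was -0.66 for Hmgcs1 (SE 0.170, edgeR adjusted p 0.0129), where 11.7% of 18715 genes passed in either direction and 4.13% of the 18715 passed as lower. It was the only member called, and the call was lost without S205A control 4, where the value was -0.51 with an edgeR adjusted p of 0.399, and in the S205A line alone, with -0.66 and 0.0638. The series term of Idi1 was -0.63 (SE 0.319, edgeR adjusted p 0.233), and without S205A mutant 1 it was -0.22. Srebf2 (0.27, SE 0.186) and Fdft1 (0.25, SE 0.300) had positive values that did not pass. Without S205A control 4 these were 0.0032 and 0.05, and without S205A mutant 1 they were 0.54 and 0.45. Of the markers in the series term, 1 of 7 smooth muscle and 1 of 8 Schwann cell genes passed as higher. Fibroblast markers were negative in 5 of 7, with a median of -1.07 and 4 with an unadjusted p under 0.05, and 0 passed in edgeR. Their part was not tested. The Hmgcs1 values for the series and for Y198F against its labelled controls were thus of similar size.

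**Figure D2:**
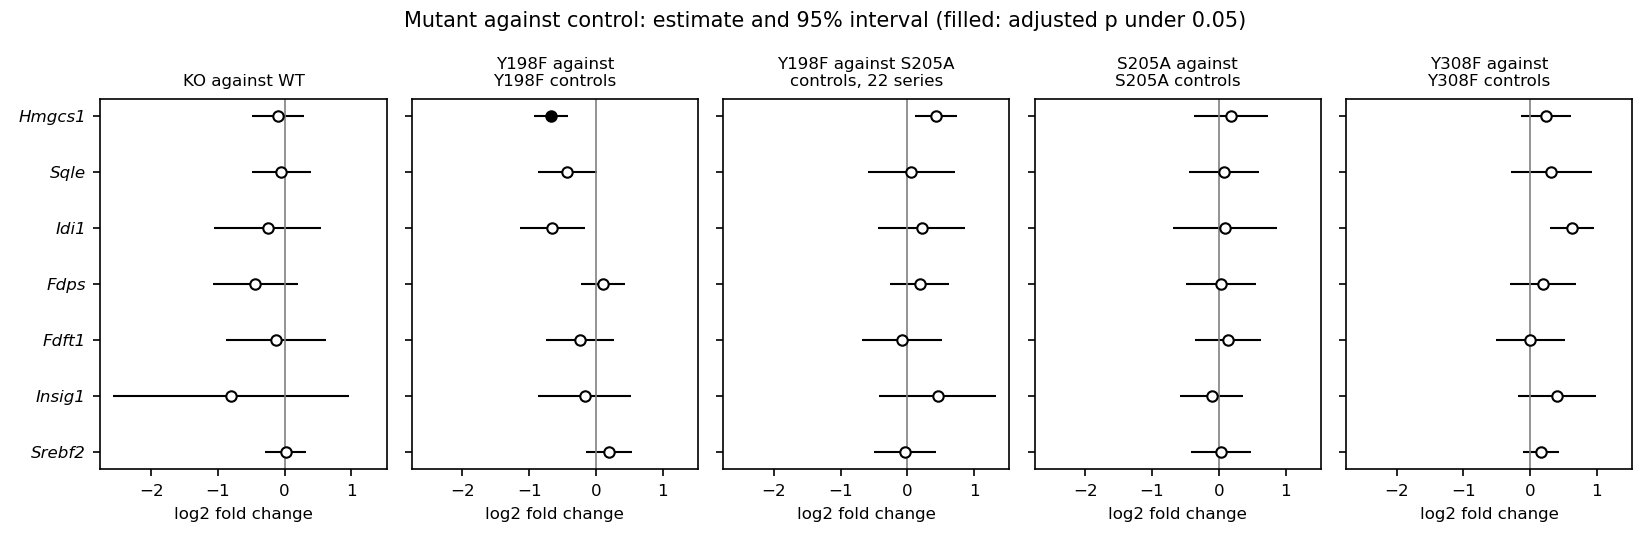
Log2 fold change (horizontal axes) of each gene in the 4 comparisons, with a further panel for Y198F against the 3 S205A controls of the 22 series. Circles are edgeR estimates, bars are 95% intervals and filled circles have an adjusted p under 0.05. Hmgcs1 is filled at -0.68 against the labelled Y198F controls and lies at 0.42 against the S205A controls.

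The authors' deposited table for Y198F gives other values for these genes: 0.16 for Hmgcs1, 0.15 for Idi1 and 0.41 for Insig1 in log2 fold change, and 0 of the 7 past the threshold, where 3 of 18991 genes in the authors' deposited table are. Recomputed from the counts with S205A controls as the reference, the fold changes of 18991 genes differed from the authors' deposited table by at most 0.00016, and with the labelled Y198F controls by up to 7.51.

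In Y308F arteries the members had positive values, but no gene passed the threshold. Idi1 stood at 36.6, 43.6 and 52.7 CPM in Y308F and at 28.2, 30.6 and 27.7 CPM in the controls. The groups did not overlap, as in 10.7% of all genes tested. The log2 fold change was 0.63 (SE 0.147, 95% interval 0.30 to 0.96), with an unadjusted p of 0.00203 and an edgeR adjusted p of 0.941. The exact permutation p was 0.1 (n = 3 each). In edgeR 0.0% of 16037 genes passed, 706 had an unadjusted p under 0.05, and DESeq2 called 0.

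The log2 fold changes of the other members in Y308F were 0.40 for Insig1 (SE 0.252), 0.32 for Sqle (SE 0.265), 0.24 for Hmgcs1 (SE 0.168), 0.20 for Fdps (SE 0.218), 0.16 for Srebf2 (SE 0.120) and 0.0003 for Fdft1 (SE 0.228). With Idi1, 7 of 7 values were positive and the median was 0.24, while 46.0% of all genes tested were positive and their median was -0.03. Most members varied together among libraries, as described below, so these signs are not separate observations. Fdft1 was at -0.01 when all 8 groups were fitted together, -0.20 without Y308F control 3 and -0.12 without Y308F library 3. With a library left out, Fdps ran from 0.01 (without Y308F control 3) to 0.34 (without Y308F library 1), Sqle from 0.11 (without Y308F library 3) to 0.57 (without library 1) and Hmgcs1 from 0.12 (without control 3) to 0.36 (without library 1). Insig1 ran from 0.24 (without Y308F library 2) to 0.64 (without library 1), Srebf2 from 0.11 to 0.22 and Idi1 from 0.50 to 0.75, with 0 members past the threshold in any of these 6 edgeR fits. Markers had mostly negative values in this comparison: 7 of 8 Schwann cell genes (median -0.52, 4 with an unadjusted p under 0.05), 7 of 8 adipocyte genes (median -0.55) and 5 of 5 macrophage genes (median -0.32), of which 0 passed in edgeR. Their part was not tested. The groups of these 6 overlapped. Y308F library 1 was the lowest of its group for each of the 7 genes, with 53.8 CPM for Hmgcs1 against 67.3 and 76.4 CPM, and 13.8 CPM for Sqle against 24.7 and 29.1 CPM.

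Dbp, an output gene of the circadian clock, was read in the same libraries because its level varied widely among them. It stood at 222 CPM in Y308F library 1 and at 1.73 and 2.85 CPM in libraries 2 and 3, and the Y308F controls were at 3.46, 194 and 214 CPM. The Y198F controls were at 4.82, 11.6 and 11.9 CPM and the Y198F mutants at 97.6, 132 and 259 CPM. In the Y198F comparison the groups did not overlap in Dbp, and in the Y308F comparison each group held low and high libraries. In the same order as for Dbp, the Y308F controls stood at 63.0, 59.9 and 45.7 CPM for Hmgcs1, 26.8, 25.8 and 16.6 CPM for Fdps, 51.0, 53.1 and 38.6 CPM for Insig1 and 28.2, 30.6 and 27.7 CPM for Idi1. Of the controls high in Dbp, control 2 was thus near control 1 for these genes, and control 3 was lower for Hmgcs1, Fdps and Insig1. In a fit added after these levels were seen, which took all 8 groups with the series and Dbp as terms, 7 of 7 members had a negative Dbp term, from -0.05 to -0.10 per log2 unit of Dbp, and 51.2% of all genes were positive. These signs too are not separate observations, since most members varied together among libraries. No member passed, where 0.374% of 18715 genes did, or 70 genes, and 23 (without Y308F control 1) to 196 (without S205A control 1) with a library left out. Fdps had the largest term, -0.10 (SE 0.0370, unadjusted p 0.0122, edgeR adjusted p 0.511) with all libraries. The Sqle term was -0.08 and ran from -0.16 (without Y308F control 1) to -0.02 (without Y308F library 1). Without Y308F control 1 those of Idi1 and Fdps were -0.11 and -0.12, without Y308F control 2 that of Fdft1 was -0.08 in place of -0.05, and without WT library 3 that of Insig1 was -0.07. Without Y308F library 1 the Insig1 term was positive at 0.02. Of the markers in this fit, 7 of 7 smooth muscle genes (median 0.04, 2 with an unadjusted p under 0.05), 8 of 8 adipocyte genes (median 0.14, 0 with one) and 7 of 8 Schwann cell genes (median 0.04, 0 with one) were positive. Lymphoid genes were negative in 6 of 6 (median -0.24, 2 with one) and endothelial genes in 5 of 7 (median -0.08, 0 with one). Of these lists 0 genes passed in edgeR, and their part was not tested. In the same fit 5 of 7 Y308F values were positive: 0.43 for Idi1 (SE 0.342), 0.24 for Insig1 (SE 0.488), 0.11 for Hmgcs1 (SE 0.175), 0.04 for Sqle (SE 0.278) and 0.02 for Srebf2 (SE 0.181). Those of Fdps and Fdft1 were -0.06 and -0.14.

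**Figure D3:**
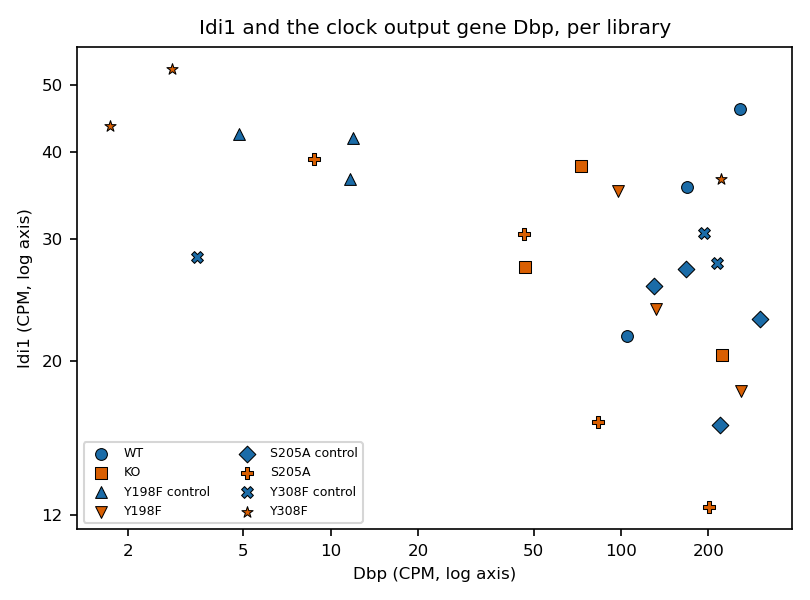
Idi1 level against Dbp level, both in CPM on log axes, in the 26 libraries; blue markers are control groups and orange markers are mutants. The Y198F controls lie at low Dbp, from 4.82 to 11.9 CPM, with Idi1 from 36.6 to 42.4 CPM, and Y308F library 1 lies apart from the other Y308F libraries at 222 CPM of Dbp.

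Whether the mutations differ in effect on these genes was tested directly as an interaction for each of the 6 pairs of lines. Between Y198F and Y308F, Idi1 differed by -1.29 (SE 0.283, edgeR adjusted p 0.0203) and Hmgcs1 by -0.92 (SE 0.209, edgeR adjusted p 0.0216) on the log2 scale, the Y198F effect minus the Y308F effect. In this pair 5.7% of 17190 genes differed, or 979 genes, and 320 (without Y198F control 3) to 1227 with a library left out. Each call held in 8 of 12 fits with a library left out. Idi1 lost it without Y198F control 1 or 3, Y198F library 2 or Y308F library 3, at adjusted p-values up to 0.0603. Hmgcs1 lost it without Y198F control 1 or 3, Y198F library 1 or Y308F library 3, at up to 0.0662. With the series as a term the differences were -0.65 (SE 0.567) and -0.24 (SE 0.304), and neither was called. In the other 5 pairs 0 members passed in edgeR, with the lowest adjusted p of 0.0928 for Hmgcs1 between the knockout and Y198F, where 11.6% of 17347 genes differed. In the remaining 4 pairs the share of genes that differed was 0.00562% (knockout and S205A), 0.0116% (knockout and Y308F), 0.0% (Y198F and S205A) and 0.0% (S205A and Y308F), with 741, 535, 2499 and 615 genes at an unadjusted p under 0.05.

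In the Panx1 knockout no member passed. Insig1, the sterol sensor, had the largest value, -0.80 on the log2 scale (SE 0.669, adjusted p 0.715 in edgeR). It stood at 41.2, 38.7 and 55.3 CPM in the knockout and at 41.3, 38.8 and 159 CPM in wild type. The value rested on wild-type library 3, and without it the log2 fold change was 0.19 (SE 0.161). That library also had the highest adipocyte marker sum of the series, 3138 CPM against 538 and 671 CPM in the other wild-type libraries. Adipocyte markers were negative in 8 of 8 in the knockout, with a median log2 fold change of -1.46 and 0 genes at an unadjusted p under 0.05. Smooth muscle markers were negative in 7 of 7 (median -0.23) and endothelial ones in 6 of 7 (median -0.05), while macrophage markers were positive in 5 of 5 (median 0.49) and lymphoid ones in 4 of 5 (median 0.18). Of these lists 0 genes passed in edgeR, 1 smooth muscle and 1 macrophage gene had an unadjusted p under 0.05, and their part was not tested. In bulk tissue, fewer cells of a type and less RNA per cell cannot be told apart.

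The remaining members in the knockout ran from -0.44 for Fdps (SE 0.275) to 0.01 for Srebf2 (SE 0.137). Without knockout library 3 Fdps was at -0.73, and without knockout library 1 at -0.21. Fdps stood at 11.5, 18.4 and 24.7 CPM in the knockout and at 21.9, 22.4 and 30.9 CPM in wild type, so the groups overlapped. Negative values were found in 6 of 7 members, with a median of -0.13 against 0.005 over all genes, of which 50.8% were positive. Since most members varied together among libraries, these signs are not separate observations. In this comparison 0.0309% of 16193 genes passed, and groups failed to overlap in 18.8% of genes but in 0 of the 7 members. The signs of Hmgcs1, Sqle, Idi1, Fdft1 and Srebf2 each turned when a library was left out.

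**Figure D4:**
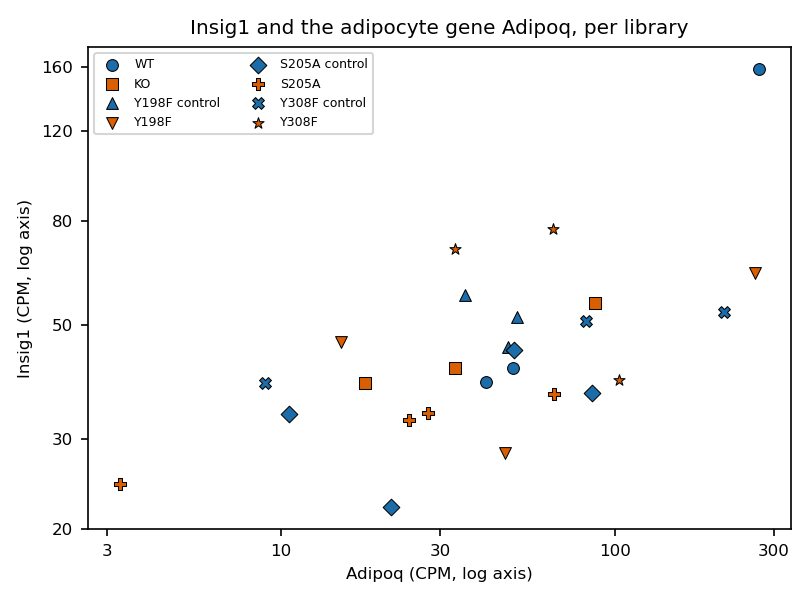
Insig1 level against the level of Adipoq, an adipocyte hormone gene, both in CPM on log axes, in the 26 libraries; blue markers are control groups and orange markers are mutants. WT library 3 has 158.8 CPM of Insig1 and 271 CPM of Adipoq, whereas Y198F library 3 has 63.4 and 262 CPM.

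Insig1 was compared with Adipoq over all libraries, since both were high in that wild-type library. With group, series and Adipoq as terms, the Insig1 term was 0.19 per log2 unit of Adipoq (SE 0.0702, unadjusted p 0.0137, edgeR adjusted p 0.246), and the Hmgcs1 term was 0.09 (SE 0.029, edgeR adjusted p 0.142). No member passed, where 2.29% of 18715 genes did. Without wild-type library 3 the Insig1 term was 0.11 (SE 0.0517), the lowest of the 26 fits with a library left out. With all libraries in that fit, the knockout value of Insig1 was -0.48. By comparison, 7 of the 12 fatty acid genes under SREBP1 rose with Adipoq, among them the desaturase Scd1 at 0.96 per log2 unit (SE 0.0834, edgeR adjusted p 5.24e-07) and the fatty acid synthase Fasn at 0.67 (SE 0.0939). Of the 17 other sterol synthesis enzymes, 1 rose with Adipoq, Nsdhl at 0.17 (SE 0.0381, edgeR adjusted p 0.0123). So did 1 of 10 sterol sensing genes (Srebf1, 0.18), 2 of 13 uptake and transport genes (the lipoprotein receptor Scarb1, 0.22, and the sterol carrier Npc2, 0.14) and 2 of 8 efflux genes (Apoe, 0.36, and the exporter Abca1, 0.24). Of the marker genes tested, 8 of 8 for adipocytes, 4 of 5 for macrophages, 2 of 7 for endothelium and 1 of 2 for acinar pancreas rose with Adipoq. Adipoq is itself 1 of the 8 adipocyte markers, and its rise with its own level was fixed in advance. Whether the lists differ in this respect was not tested.

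In the S205A line the members differed by less than the spread between libraries. Positive values were found in 6 of 7 members, with a median of 0.08, beside 46.9% of all genes tested. These signs are not separate observations, since most members varied together among libraries. Log2 fold changes ran from -0.11 for Insig1 (SE 0.212) to 0.18 for Hmgcs1 (SE 0.246, 0.04 without S205A library 1 and 0.44 without S205A control 4), and groups overlapped for 7 of 7 members, where 1.81% of genes did not overlap. Hmgcs1 stood at 53.3, 47.8, 32.1 and 33.0 CPM in S205A and at 30.8, 27.0, 34.5 and 54.1 CPM in the controls. The 95% interval of its log2 fold change ran from -0.37 to 0.73. In edgeR 0.0% of 15709 genes passed, 451 had an unadjusted p under 0.05, and DESeq2 called 47 genes. Within the 22 series the value of Hmgcs1 was 0.30 and that of Idi1 was -0.16. Adventitial fibroblast markers were positive in 7 of 7 in this line, with sums of 2549 to 6418 CPM in S205A and 1654 to 2434 CPM in the controls. Schwann cell markers were positive in 6 of 7 (median 0.64), with sums of 186.7 to 308.2 CPM in S205A and 129 to 179 CPM in the controls. On the fibroblast and Schwann cell lists 5 and 4 genes had an unadjusted p under 0.05. Smooth muscle markers were negative in 6 of 7 (median -0.10), endothelial ones in 5 of 7 (median -0.13) and adipocyte ones in 7 of 8 (median -0.51). Macrophage markers were positive in 5 of 5 (median 0.32) and lymphoid ones in 3 of 4 (median 0.76), and on each of these lists 0 genes had an unadjusted p under 0.05. Of all these lists 0 genes passed in edgeR, and their part was not tested.

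The group means pool the library series in different shares: Y198F is wholly of the 22 series, 3 of 4 libraries in each S205A group are, and none is in the other 5 groups. Over all libraries Hmgcs1 was highest in Y308F (65.9 ± 11.4 CPM, SD, n = 3) and the Y198F controls (65.7 ± 7.44 CPM, SD, n = 3) and lowest in the S205A controls (36.6 ± 12.05 CPM, SD, n = 4). Idi1 was likewise highest in Y308F (44.3 ± 8.05 CPM, SD, n = 3) and lowest in the S205A controls (22.97 ± 4.84 CPM, SD, n = 4). Outside the 22 series, S205A control 4 stood at 54.1 CPM for Hmgcs1 and 25.6 CPM for Idi1, within the range of the libraries of the other groups there. Among the 5 groups wholly outside it, the knockout was lowest for both, at 50.3 ± 7.93 CPM for Hmgcs1 and 28.6 ± 8.94 CPM for Idi1 (SD, n = 3 each), where the Y308F controls were at 28.8 ± 1.57 CPM (SD, n = 3). Within the 22 series the means in Y198F, S205A and the S205A controls were 41.3, 37.6 and 30.8 CPM for Hmgcs1 and 25.7, 19.7 and 22.1 CPM for Idi1 (n = 3 each), so S205A was the lowest for Idi1 there. For each of the 7 genes, every group overlapped its neighbour in the order of the 8 means. Srebf2 had another order, with the Y198F mutants highest (150 ± 35.4 CPM, SD, n = 3) and the knockout lowest (112 ± 13.2 CPM, SD, n = 3) over all libraries. Within the 22 series its means were 150, 145 and 154 CPM in Y198F, S205A and the S205A controls (n = 3 each), so Y198F was not the highest there, and S205A control 4 stood at 104.6 CPM. For Fdps, Fdft1 and Sqle the means of the 8 groups ran from 18.2 to 26.2, from 12.6 to 16.1 and from 15.6 to 22.6 CPM.

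Among libraries of the same group and series, most members varied together. The mean of each group and series was subtracted from log2 CPM, which left 24 libraries in cells of 2 or more. Of the 21 pairs of members, 20 had a positive correlation, the median r was 0.64, and 15 pairs passed a permutation test within group and series with adjustment over the 21 pairs (16 by Spearman's rho). Among all 83340505 pairs of 12911 genes with a mean log2 CPM of at least 1, 49.8% were positive and the median r was 0. An r at or above 0.41, the lowest of the called member pairs, was found in 10.2% of those pairs and in 16 of the 21 member pairs. Idi1 and Fdps, adjacent steps of the isoprenoid branch, had r = 0.81 and rho = 0.83 (permutation adjusted p 0.00084 and 0.00042), and r was 0.80 without the 2 libraries farthest from the median. Hmgcs1 and Fdps also had r = 0.81 (rho 0.80, permutation adjusted p 0.00588 and 0.00549), and r was 0.75 without those 2 libraries. For these pairs r was 0.95 and 0.62 within the 9 libraries of the 22 series, and 0.76 and 0.89 within the 15 others.

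The factor and the sensor, Srebf2 and Insig1, were the only pair with a negative correlation, r = -0.23 (rho -0.12, permutation adjusted p 0.417 and 0.671). Srebf2 varied with Idi1 (r = 0.72, rho 0.71, permutation adjusted p 0.0203 and 0.0121), and r was 0.69 without the 2 farthest libraries. Its r was 0.31 over the 15 libraries outside the 22 series and 0.93 over the 9 of the series. For Srebf2 and Fdps r was 0.36 and 0.94 (rho 0.62 over the 24, permutation adjusted p 0.0167). For Srebf2 and Sqle r was 0.58 outside the series and 0.75 within it. Over the 24 libraries that pair had r = 0.63 and rho = 0.65 (permutation adjusted p 0.00588 and 0.00549). Whether these correlations differ between the series was not tested. Insig1 varied with Fdft1 (r = 0.73, rho 0.69, permutation adjusted p 0.00864 and 0.00815; 0.60 without the 2 farthest libraries), whose values are uncertain, and with Hmgcs1 (r = 0.64, rho 0.69, permutation adjusted p 0.00999 and 0.00549; 0.66 without the 2 farthest libraries). Outside the 22 series r was 0.75 and 0.77 for these pairs, and 0.71 and 0.36 within it. Among the enzymes Insig1 varied least closely with Sqle (r = 0.12, rho 0.24, permutation adjusted p 0.606 and 0.343). Libraries share their depth and tissue makeup across genes, and the part of these in the correlations was not tested.

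**Figure D5:**
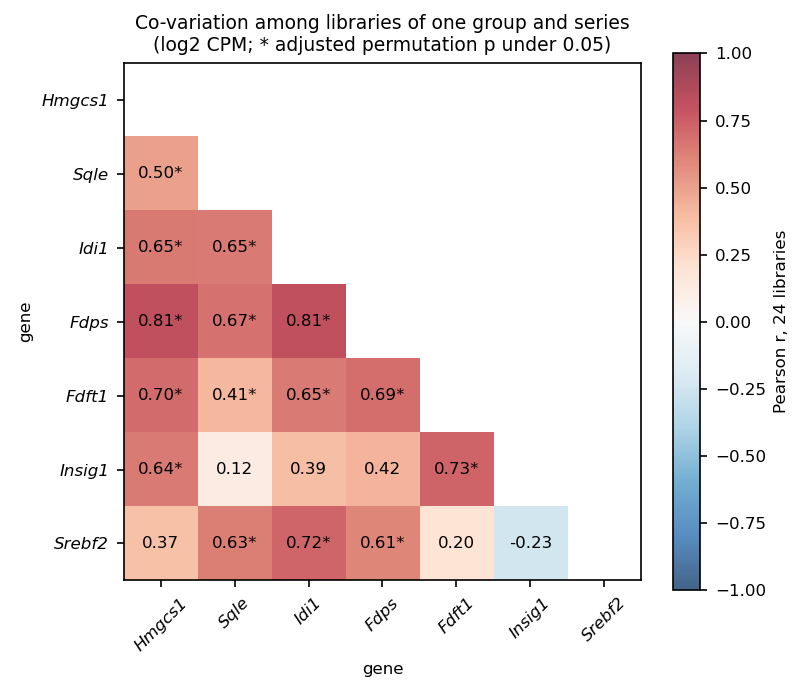
Pearson correlation (colour and number) of each pair of the 7 genes in log2 CPM over 24 libraries, after the mean of each group and series was subtracted; an asterisk marks an adjusted permutation p under 0.05. The pairs with Fdps reach 0.81, and Insig1 with Srebf2 is the only negative pair at -0.23.

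The genes whose centred levels were most like the mean of the 7 members, out of 12911 genes, included further enzymes of the same pathway. Msmo1, a methyl sterol oxidase, had r = 0.85 over the 24 libraries, and Cyp51, the lanosterol demethylase, had r = 0.79. Aldh4a1, Gmcl1, Asah1 and Pnrc1, which are on none of the pathway lists, had r from 0.76 to 0.84. The median r was 0.62 over 17 other synthesis enzymes and 0.53 over 12 fatty acid genes. It was 0.08 over 10 sterol sensing genes, 0.15 over the 11 uptake and transport genes measured and 0.12 over 8 efflux genes, beside -0.03 over all genes. The r values are descriptions, and the members themselves enter the mean they are compared with.

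The wider pathway lists were read in the same fits. The counts for Y198F stand beside 15.0% of all genes passing in either direction and 5.48% as lower, and with 1 or 2 genes a list they say little about a list as a whole. In Y198F against its labelled controls, 2 of 17 other synthesis enzymes fell: Cyp51, from 22.4 ± 4.72 to 13.0 ± 2.00 CPM (SD, n = 3 each; log2 fold change -0.79, SE 0.182), and Ggps1, which makes geranylgeranyl diphosphate, with -0.42 (SE 0.106). The median of the list was 0.03. Of 10 sterol sensing genes, 1 rose, the SREBP escort Scap, from 35.1 ± 3.12 to 55.3 ± 9.31 CPM (SD, n = 3 each; log2 fold change 0.65 with SE 0.135, adjusted p 0.00887 in edgeR). Of the 12 uptake and transport genes tested, 1 fell, the lipoprotein receptor Vldlr (-0.36, SE 0.110, edgeR adjusted p 0.0479). Of 8 efflux genes, both genes for the oxysterol receptors LXR rose, Nr1h3 by 0.76 (SE 0.185) and Nr1h2 by 0.56 (SE 0.101), and of 12 fatty acid genes Scd2 fell (-0.60, SE 0.133). The fatty acid list as a whole was positive in 9 of 12, with a median of 0.59, beside 49.7% of all genes. Against the S205A controls of the 22 series it was positive in 12 of 12, with a median of 1.05, beside 48.15% of all genes. There 3 of the 12 had an unadjusted edgeR p under 0.05 and 0 passed.

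Some of these calls appeared in the series term as well. Ggps1 (-0.36, SE 0.0897), Scap (0.61, SE 0.149) and Nr1h2 (0.58, SE 0.102) passed there, at edgeR adjusted p-values from 0.000587 to 0.0106. Cyp51 (-0.37), Nr1h3 (0.30), Vldlr (-0.17) and Scd2 (-0.12) did not, at 0.472 to 0.900. Against the S205A controls of the 22 series, the log2 fold changes were 0.11 for Cyp51, -0.17 for Ggps1, -0.03 for Scap, 0.04 for Nr1h2, 0.35 for Nr1h3, -0.10 for Vldlr and 0.09 for Scd2. With the series as a term, the Y198F values were -0.41 for Cyp51, -0.05 for Ggps1, 0.05 for Scap, -0.01 for Nr1h2, 0.47 for Nr1h3, -0.18 for Vldlr and -0.48 for Scd2. All 7 had an edgeR adjusted p of 1.0 in both of these fits. In the other 3 comparisons 0 genes of the 5 lists passed in edgeR. The number with an unadjusted p under 0.05 on each list was at most 2. In Y308F positive values were found in 14 of 17 synthesis enzymes, with a median of 0.22. In the knockout 12 of 17 were negative, with a median of -0.14, and in S205A 13 of 17 were positive, with a median of 0.12. Over all genes tested, 46.0% were positive in Y308F, 50.8% in the knockout and 46.9% in S205A. These enzymes varied with the mean of the members among libraries (median r 0.62), so their signs are not separate observations.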

How the data were processed

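Polyadenylated RNA from mesenteric arteries was sequenced as paired reads of 150 bases, per the labels' protocols. Per the series' design text, the authors aligned reads with STAR 2.7.9a to GRCm39 and counted them with featureCounts of Rsubread 2.20.0; the annotation release and the strand setting are not given in the sources used here. The deposited values used were raw counts per gene, and normalized signal, that is counts divided by DESeq2 1.46.0 size factors, from which only the symbols were taken here. The authors' deposited comparison tables give log2 fold changes, their standard errors, Wald scores and p-values from DESeq2.

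Gene identifiers (57010) were matched to GENCODE vM39, which held 56310 of them. Each mutant was compared with its labelled controls by edgeR 4.0.16 in R 4.3.3 (TMM scaling, filterByExpr, robust quasi-likelihood test), with Benjamini-Hochberg adjustment over all genes tested and a threshold of 0.05. Counts are given as CPM after TMM scaling, with the SD between libraries. Intervals are 95%, from the standard error and the t quantile at the degrees of freedom of the edgeR test. Further fits took all 8 groups with the library series, Dbp or Adipoq (log2 CPM) as terms; the Dbp and Adipoq fits were added after seeing the data. Single genes were also tested by exact two-sided permutation, and correlations by 100000 permutations within group and series (scipy 1.17.1). DESeq2 1.42.0, other filters and scalings, a replicate block and omission of each library were alternatives. The fitting steps were tested on simulated data. No replicate pair agreed within sampling noise, with a chi-square per degree of freedom of 14.98 to 159.1 over 30 pairs.

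The 7 genes and the pathway and marker lists were chosen with earlier results of these data known. Named pathway genes were up to 5 past the threshold per list and comparison, largest log2 fold change first, or otherwise the 2 with the largest values; only some of the latter are printed. The 8 genes most like the mean z-score of the members were named by Pearson r. Some genes and 1 sequence that these rules select are not reported here.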

Additional observations from a re-analysis of the deposited data

Results flagged for a closer look

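Sqle in the S205A controls had 1 library far from the others: control 2 stood at 9.88 CPM and the other 3 at 17.9 to 18.9 CPM, a gap of 0.886 of the group's range. Chance gives a gap above the limit used, 0.829, in about 1 in 20 groups, and 14 groups of 4 libraries were examined (7 genes in the S205A line).

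Idi1 and Hmgcs1 differed in their effects between Y198F and Y308F, by -1.29 and -0.92 on the log2 scale as an interaction in edgeR (adjusted p 0.0203 and 0.0216), where 5.7% of 17190 genes differed. Each call was lost in 4 of 12 fits with a library left out. In Y198F 3 of 3 libraries were below every control for both genes, and in Y308F 3 of 3 were above every control for Idi1; groups failed to overlap in 34.2% of all genes in Y198F and in 10.7% in Y308F. The Y198F mutants and their controls belong to different library series, and with the series as a term neither difference passed.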

How the results depend on the processing

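Counted over members, comparisons and alternatives, 924 values kept their direction and their side of the threshold. With the direction kept, 15 lost a call and 5 gained one, and 85 changed sign. Hmgcs1 in Y198F is among these 85 against the S205A controls of the 22 series and in the fit with the series and Dbp. In both its call was lost as well. The cause was not tested. Genes past the threshold numbered 5 in the knockout, with 117 in DESeq2, 243 without a filter, 18 with a replicate block and 1 to 5 with a library left out (1 without WT library 1 or any knockout library, and 3 without WT library 2). They numbered 2411 in Y198F, with 922 when all 8 groups were fitted, 0 with the series as a term (alone or with Adipoq or Dbp), 0 against the S205A controls of the 22 series, and 908 (without control 3) to 2128 with a library left out, with 1546 without control 1. In S205A 0 genes passed, with 47 in DESeq2, 15 with the series and Adipoq, 5 with the series and Dbp, and 0 to 1 (without S205A library 2) with a library left out. In Y308F 0 genes passed, with 7 without a filter, 1 with the series and Adipoq, and 0 to 1 (without control 3) with a library left out. The series term called 2189 genes, 902 in the S205A line alone and 282 (without S205A control 4) to 2404 with a library left out, and 932 without S205A library 1. The difference between Y198F and Y308F called 979 genes, with 323 without Y308F library 3, 503 without Y198F control 1, 507 without Y308F control 2, 572 without Y308F library 2, 592 without Y198F library 1 and 650 without Y198F library 2. The Dbp term called 70, with 29 without Y308F library 1, 40 and 45 without Y308F controls 2 and 3, and 42 without Y308F library 2. The Adipoq term called 428, with 282 without Y198F library 3.

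Signs of log2 values turned as follows. In the knockout, Srebf2 was -0.0064 in the fit of all 8 groups with and without the series, -0.057 with Dbp and -0.018 with Adipoq, and Fdft1 was 0.0095 with Adipoq. In Y198F against the S205A controls of the 22 series, Hmgcs1 was 0.42, Sqle 0.058, Idi1 0.22, Insig1 0.46 and Srebf2 -0.035. In Y198F with the series and Dbp, Hmgcs1 and Sqle were 0.10, Idi1 0.11 and Insig1 0.068. With the series Srebf2 was -0.068, and with Adipoq as well Srebf2 was -0.056 and Fdps -0.035. In S205A within the 22 series, Sqle was -0.017, Idi1 -0.16, Fdps -0.23 and Srebf2 -0.083, and with Dbp these were -0.094, -0.12, -0.16 and -0.063. Insig1 was 0.023 with Adipoq. In Y308F, Fdps was -0.060 with Dbp, and Fdft1 was -0.010 in the fit of all 8 groups, -0.011 with the series and -0.14 with Dbp. The difference of Srebf2 between Y198F and Y308F was -0.22 with the series. With the series, the difference of the knockout minus Y198F turned from 0.58 to -0.11 for Hmgcs1, from 0.41 to -0.24 for Idi1, from 0.38 to -0.012 for Sqle and from -0.18 to 0.062 for Srebf2. That of Y198F minus S205A turned from -0.066 to 0.064 for Insig1, from 0.078 to -0.0031 for Fdps and from 0.17 to -0.12 for Srebf2.

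With a library left out, ranges that crossed 0 in the knockout were -0.21 to 0.084 for Hmgcs1, -0.18 to 0.12 for Sqle, -0.52 to 0.017 for Idi1, -0.37 to 0.31 for Fdft1, -1.13 to 0.19 for Insig1 and -0.079 to 0.14 for Srebf2. In Y198F they were -0.029 to 0.25 for Fdps and -0.47 to 0.082 for Insig1. Against the S205A controls they were -0.19 to 0.22 for Sqle, -0.084 to 0.41 for Idi1, -0.32 to 0.13 for Fdft1 and -0.15 to 0.15 for Srebf2. In S205A they were -0.10 to 0.17 for Sqle, -0.22 to 0.32 for Idi1, -0.11 to 0.15 for Fdps, -0.048 to 0.27 for Fdft1, -0.27 to 0.047 for Insig1 and -0.14 to 0.15 for Srebf2. They were -0.20 to 0.19 for Fdft1 in Y308F and -0.43 to 0.67 for Fdps in the series term. In the difference between Y198F and Y308F they were -0.26 to 0.088 for Fdps and -0.088 to 0.22 for Srebf2. They were -0.074 to 0.023 for Insig1 per unit of Dbp, and -0.049 to 0.0092 for Sqle and -0.053 to 0.024 for Srebf2 per unit of Adipoq. Some ranges stayed on 1 side of 0 but moved by over 1.5 times. Against the S205A controls these were 0.044 (without Y198F library 1) to 0.32 for Fdps and 0.15 (without Y198F library 3) to 0.73 (without S205A control 3) for Insig1. In the series term they were -0.26 (without S205A control 3) to -0.023 (without S205A control 1) for Insig1, -0.54 to -0.20 (without S205A library 1) for Sqle and -0.99 (without S205A control 4) to -0.22 for Idi1. In the difference between Y198F and Y308F they were -0.50 (without Y198F library 1) to -0.042 (without Y198F library 2) for Fdft1 and -0.87 (without Y198F library 3) to -0.33 (without Y198F library 2) for Insig1. Per unit of Adipoq they were 0.059 (without WT library 3) to 0.15 (without Y198F library 1) for Fdft1, 0.027 (without Y308F control 3) to 0.10 (without Y198F library 3) for Fdps and 0.010 (without S205A library 4) to 0.11 (without Y198F library 3) for Idi1.

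Replicate numbers did not pair the libraries: the deviations of same-numbered libraries correlated at -0.284 to 0.225 over 13 pairs, 4 of them over 0.1, and in 5 pairs the best correlation was with the same number. With the replicate block 1760 genes passed in Y198F, where Idi1 passed with -0.70 (edgeR adjusted p 0.0373), and Idi1 in S205A was -0.021. The 95% intervals of the member values are not adjusted for the number of genes tested. Differences smaller than these intervals, and some larger ones, were not detectable with 3 or 4 libraries a group. Idi1 in Y308F, at 0.63 with an interval of 0.30 to 0.96, had an edgeR adjusted p of 0.94.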
